A study of Gallus gallus with 6 samples.

Results

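WNT4, RSPO1, CTNNB1, FOXL2 and SOX3 are genes that are linked to the fate of the ovary, and their mRNA was followed here in the hen, in the germinal disc region before and after ovulation and in granulosa cells. The genes were taken from earlier results on these arrays, and every probe set whose single annotated symbol is one of them was used. This gave 5 probe sets, 1 for each of 5 genes, out of 38439 probe sets and 13009 genes measured. RefSeq gives these genes the same 5 symbols.

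The samples were of 3 kinds. Ov GDR is the germinal disc region cut from oocytes after ovulation and carries no granulosa cells, F1 GDR is the same region cut from F1 follicles, and F1 GCs are granulosa cells of F1 follicles taken near the disc. The F1 follicle is the largest one and the next to ovulate, and the germinal disc region is the small patch of oocyte that holds the nucleus. All 3 groups came from untreated ISA Brown laying hens, and F1 GDR still has the granulosa cells that lie over the disc, whose number was not counted. Each group had 2 Affymetrix chicken arrays, each with RNA pooled from 25 hens, and within a group replicate 1 is the array without and replicate 2 the array with a suffix in its label. The spread between arrays is that between pools, and an exact permutation test of 2 against 2 cannot go under p = 0.333. The labels do not say whether the pools of the 3 groups came from the same hens. Values are log2 values from gcrma, and an array's background is the highest of 23 control probe sets for foreign sequences, between 2.76 and 3.27 over the 6 arrays.

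WNT4 is a secreted ligand of the WNT family. RSPO1 is a secreted protein that strengthens WNT signals at the receptor, and CTNNB1 encodes beta-catenin, which carries the signal to the nucleus and also joins cadherins at cell junctions. In mammals these genes act together in the early ovary against the testis pathway. FOXL2 is a forkhead transcription factor that maintains granulosa identity, and SOX3 is a transcription factor of the SOX family, known from brain and germ cells.

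The labels were checked against cell markers first. Of 11 granulosa markers all were above background on both F1 GCs arrays and both F1 GDR arrays, and 8 on each Ov GDR array, where INHA and NR5A2 were at background. FSHR, AMH and GATA4 of this list were not lower in Ov GDR, with differences from F1 GCs of 0.37, 1.45 and 0.53. The linear sum of the list was 825 and 810 in Ov GDR, 24741 and 21502 in F1 GDR and 36230 and 37269 in F1 GCs. ZP3, at a log2 value of 13.99 on both F1 GCs arrays and thus near the top of the scale, made up 23.3% to 69.6% of it, and the sum without ZP3 was 520 and 621 in Ov GDR, 8781 and 6530 in F1 GDR and 19966 and 21005 in F1 GCs. The sum of 8 measured oocyte and germ line markers was 688 and 1050.5 in Ov GDR, 711 and 799.5 in F1 GDR and 68.0 and 49.0 in F1 GCs, and DDX4 and BMP15 of this list were at background on all 6 arrays. Ov GDR replicate 1 had the largest gap between 3′ and 5′ probe sets, 5.02 for ACTB, 4.51 for EEF1A1 and 2.82 for GAPDH (log2). On the other arrays the gap lay between 1.53 and 3.57 for ACTB, between 1.09 and 3.1 for EEF1A1 and between 0.11 and 1.77 for GAPDH. For Ov GDR as a group, the authors report ribosomal RNA that seemed degraded after ovulation. Their labelled cDNA had nearly the same profile in Ov GDR, F1 GDR and ovary. The part of this RNA state in the Ov GDR values was not tested.

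WNT4 was high in both germinal disc groups and low in granulosa cells. Its log2 value was 10.86 and 10.90 in Ov GDR, 9.82 and 10.46 in F1 GDR and 4.66 and 2.64 in F1 GCs. The 3 groups did not overlap, and F1 GCs replicate 2 was below its background of 2.78 while F1 GCs replicate 1 was above its background of 2.76. The Ov GDR arrays averaged 10.88 ± 0.03, the F1 GDR arrays 10.14 ± 0.45 and the F1 GCs arrays 3.65 ± 1.43 (SD, n = 2 each).

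The difference of WNT4 was 7.23 (SE 0.72) for Ov GDR minus F1 GCs, a fold of 149.6, and 6.49 for F1 GDR minus F1 GCs, a fold of 89.7. Among 38439 probe sets this was rank 1 of the positive differences in both comparisons. The gene was picked with these values known, so they are a description. Most of the uncertainty lies in granulosa cells, where the arrays differed by 2.02. Without F1 GCs replicate 1 the array left was below background, so that Ov GDR was at least 275-fold and F1 GDR at least 165-fold above it, and without F1 GCs replicate 2 these folds were 74.3 and 44.6. Between the germinal disc groups the difference was small, 0.74 for Ov GDR minus F1 GDR or 1.67-fold, at rank 2481. In these bulk samples fewer cells of a type and less RNA per cell cannot be told apart.

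**Figure D1:**
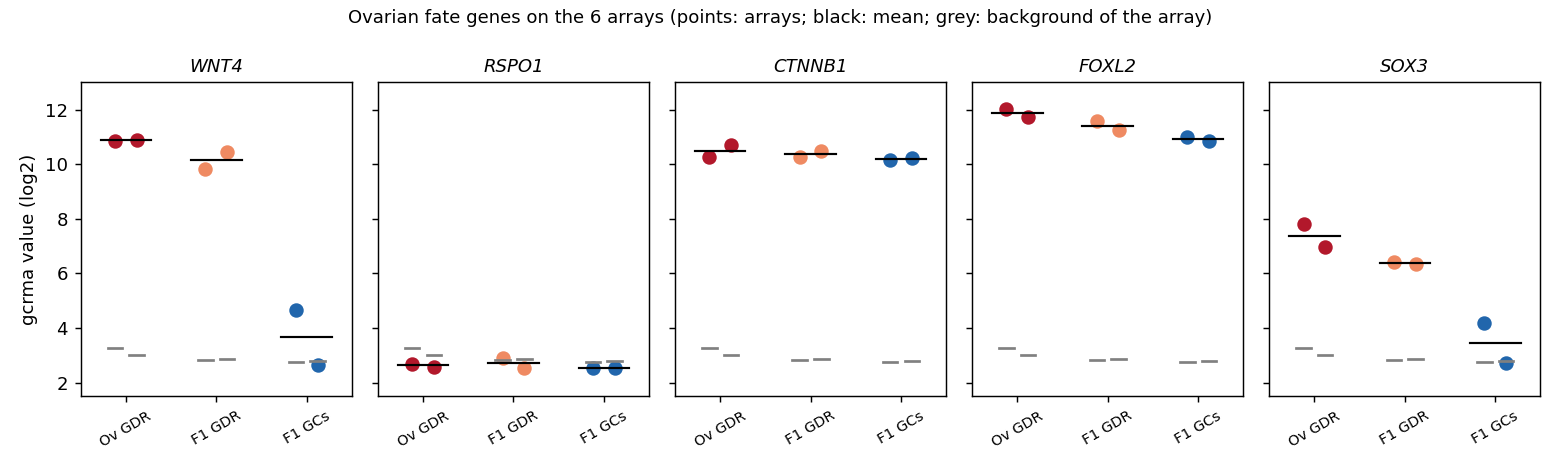
Values of the 5 genes on the gcrma log2 scale, with a point per array, a black line at the group mean and a grey line at the background of each array. WNT4 and SOX3 are high in Ov GDR and F1 GDR and close to background on F1 GCs replicate 2, FOXL2 and CTNNB1 are high in all groups, and RSPO1 lies at background.

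RSPO1, which acts beside WNT ligands at the receptor, lay at the background of the arrays. It read 2.68 and 2.58 in Ov GDR, 2.90 and 2.55 in F1 GDR and 2.52 and 2.53 in F1 GCs. Only F1 GDR replicate 1 was above its background, which was 2.82, and the Ov GDR and F1 GDR arrays overlapped. Values at background have no order, so the differences of 0.11 for Ov GDR minus F1 GCs and 0.20 for F1 GDR minus F1 GCs give a level for neither group. A single probe set at background does not show that the transcript is absent.

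CTNNB1 was well above background everywhere and nearly even. It read 10.26 and 10.70 in Ov GDR, 10.25 and 10.48 in F1 GDR and 10.15 and 10.23 in F1 GCs. Ov GDR and F1 GDR overlapped, and both were just above F1 GCs, with F1 GDR replicate 1 only 0.02 above F1 GCs replicate 2. The difference was 0.29 for Ov GDR minus F1 GCs, 0.17 for F1 GDR minus F1 GCs and 0.12 for Ov GDR minus F1 GDR, with an SE of 0.19 each. Without Ov GDR replicate 2 the last of these was -0.11. With the arrays set to equal means of ACTB, GAPDH and EEF1A1 the differences were 0.72, 0.14 and 0.57. These values are mRNA levels and say nothing of the amount or place of the beta-catenin protein.

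FOXL2 was high in all 3 groups, with the highest values in Ov GDR, the group without granulosa cells. Its value was 12.02 and 11.71 in Ov GDR, 11.59 and 11.24 in F1 GDR and 11.00 and 10.87 in F1 GCs. The groups did not overlap, although Ov GDR replicate 2 lay only 0.12 above F1 GDR replicate 1. The steps were small beside those of WNT4, 0.93 (SE 0.17) or 1.91-fold for Ov GDR minus F1 GCs, 0.48 or 1.40-fold for F1 GDR minus F1 GCs and 0.45 or 1.36-fold for Ov GDR minus F1 GDR. Its low end in granulosa cells was far from background, so that the order Ov GDR, F1 GDR, F1 GCs does not turn on values near the floor. With equal means of the 3 reporter genes the differences were 1.36, 0.45 and 0.90.

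SOX3 had the same order at a lower signal. It read 7.80 and 6.97 in Ov GDR, 6.40 and 6.36 in F1 GDR and 4.17 and 2.73 in F1 GCs. The groups did not overlap, and F1 GCs replicate 2 was below its background. The Ov GDR arrays averaged 7.38 ± 0.59, the F1 GDR arrays 6.38 ± 0.03 and the F1 GCs arrays 3.45 ± 1.02 (SD, n = 2 each).

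The difference of SOX3 was 3.93 (SE 0.60) or 15.3-fold for Ov GDR minus F1 GCs, rank 239, and 2.93 or 7.61-fold for F1 GDR minus F1 GCs, rank 404. Between Ov GDR and F1 GDR it was 1.0 or 2.01-fold. As with WNT4, the granulosa arrays set the size. Without F1 GCs replicate 1 Ov GDR was at least 24.4-fold and F1 GDR at least 12.2-fold above the background of the array left, and without F1 GCs replicate 2 these folds were 9.27 and 4.62.

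In limma's test over all probe sets with Benjamini-Hochberg adjustment, 3 of the 5 genes had an adjusted p under 0.05 for Ov GDR against F1 GCs, namely WNT4, FOXL2 and SOX3, all higher, where 15.1% of all probe sets did, 6.51% higher and 8.54% lower. For F1 GDR against F1 GCs it was 1 of 5, WNT4, where 5.19% of all did, 2.1% higher and 3.09% lower. For Ov GDR against F1 GDR it was 0 of 5, where 1.86% of all did, 0.234% higher and 1.63% lower. WNT4, CTNNB1, FOXL2 and SOX3 had every array of Ov GDR, and every array of F1 GDR, above both F1 GCs arrays, while RSPO1 was at background and is not read, and this order held for 57.5% of all probe sets in Ov GDR and for 34.3% in F1 GDR. WNT4, FOXL2 and SOX3 also had both Ov GDR arrays above both F1 GDR arrays, which 43.7% of all probe sets had, and the full order without overlap was shared by 13.6%. The genes were chosen on such values, and the counts are a description. The shares of all probe sets also count those at background, whose values have no order. Only 36.6% to 51.4% of probe sets were above background on an array. Background was also higher on the Ov GDR arrays, at 3.275 and 3.011, than on the F1 GCs arrays, at 2.762 and 2.777. The call of WNT4 for F1 GDR was lost without either F1 GDR array or F1 GCs replicate 2, that of FOXL2 without Ov GDR replicate 1, F1 GDR replicate 1 or either F1 GCs array, and that of SOX3 without either F1 GDR array or F1 GCs replicate 2.

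**Figure D2:**
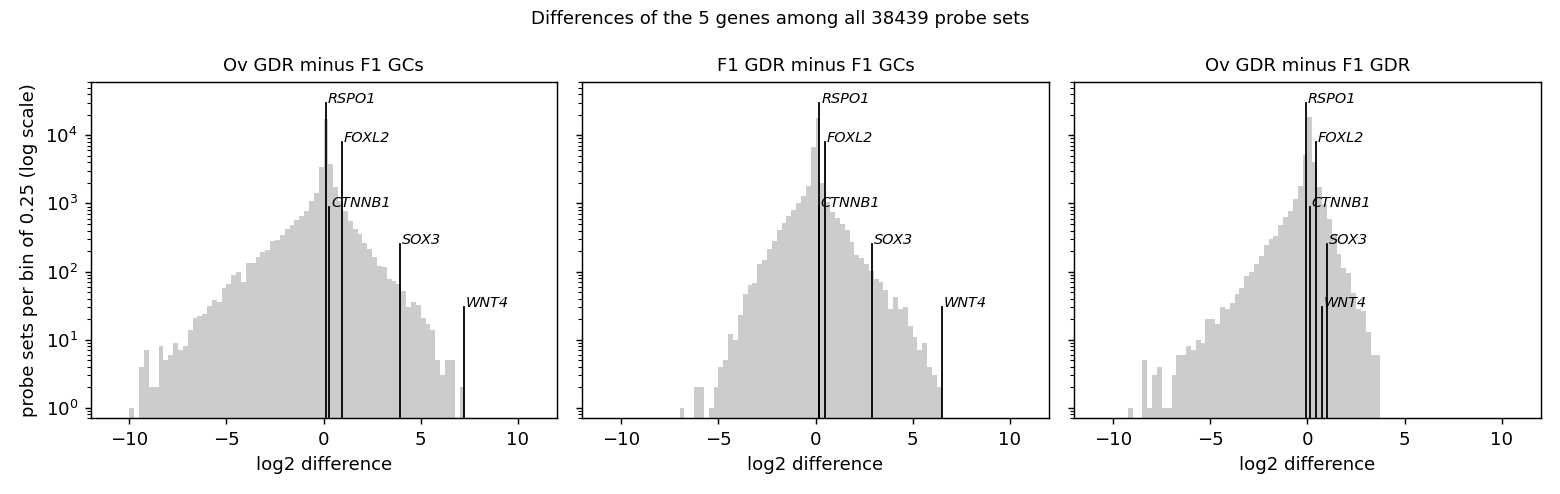
Histogram of the log2 differences of all 38439 probe sets in each comparison, with a log axis for the number of probe sets and a line for each of the 5 genes (line heights only separate the names). WNT4 lies at the right end in both comparisons with F1 GCs, at 7.23 and 6.49, and among the many small differences for Ov GDR minus F1 GDR, at 0.74.

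Ov GDR replicate 1, the array with the largest gap between 3′ and 5′ signals, carried the highest FOXL2 and SOX3 values. Without it Ov GDR minus F1 GCs was 7.25 for WNT4, 3.52 for SOX3, 0.78 for FOXL2, 0.51 for CTNNB1 and 0.06 for RSPO1. Without it Ov GDR minus F1 GDR was 0.76 for WNT4, 0.59 for SOX3, 0.30 for FOXL2, 0.34 for CTNNB1 and -0.15 for RSPO1. WNT4 was thus nearly as before, while SOX3 and FOXL2 differed less from F1 GDR and CTNNB1 differed more.

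WNT4 and SOX3 shared a gap between the F1 GCs arrays. Replicate 1 exceeded replicate 2 by 2.02 for WNT4 and 1.44 for SOX3, against 0.13 for FOXL2, -0.07 for CTNNB1 and -0.01 for RSPO1, while the SD of the differences between these arrays over all probe sets was 0.296. Markers of cell types were compared between the same arrays. Of 8 oocyte and germ line markers 5 were above background on some F1 GCs array and 4 of them were higher on replicate 1, among them DAZL at 3.46 and 2.42, BTG4 at 3.61 and 2.53 and ZP2 at 3.85 and 2.96 in F1 GCs replicates 1 and 2. Of the epithelial list 6 of 9 measured markers were above background there and 6 were higher on replicate 1. EPCAM read 7.64 and 4.14, while CDH1 read 2.86 and 2.82, close to background. In the other marker lists replicate 1 was higher for 4 of 11 granulosa markers above background there. It was higher for 2 of 6 of theca and stroma and for 1 of 3 of blood and endothelium. The share of all probe sets higher on replicate 1 was not counted, so these counts are a description. The sum of the epithelial list was 6400 and 10168 in Ov GDR, 4552 and 6579 in F1 GDR and 962 and 705 in F1 GCs, and OVAL and OVALX of this list were at background on all 6 arrays. For Ov GDR against F1 GCs 2 of its 9 measured markers (22.2%) had a limma adjusted p under 0.05, both higher, against 15.1% of all probe sets. The median difference of the list was 0.09, near that of all probe sets at 0.07, so the sum does not speak for the list as a whole. The 2 F1 GCs arrays also differ in total RNA, given as 7 µg for replicate 1 and 14 µg for replicate 2, against 16.5 to 20 µg for the other arrays. The part of these markers and of the RNA amount in the values of WNT4 and SOX3 was not tested.

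The genes most like WNT4 over the 6 arrays were picked by the root mean square difference of the centred log2 values, so that they share its gap by construction. They were KNSTRN at 0.393, CLDN1 at 0.440, LOC424111 at 0.505, NCAPG at 0.521 and DUSP4 at 0.522. KNSTRN and NCAPG serve the mitotic spindle and chromosome condensation, and DUSP4 is a phosphatase of MAP kinases. CLDN1 is a tight junction protein and also belongs to the epithelial list above. CLDN1 read 10.92 and 11.43 in Ov GDR, 10.16 and 10.38 in F1 GDR and 5.88 and 3.44 in F1 GCs. For SOX3 the nearest were PRRG3 at 0.245, UNG at 0.247, RAD52 at 0.259, DEPDC1 at 0.269 and ETV5 at 0.276. Of these UNG and RAD52 act in DNA repair and ETV5 is a transcription factor. Across the 6 arrays Pearson's r of these genes with WNT4 ranged from 0.992 to 0.999, and with SOX3 from 0.988 to 0.994, which is a description over 3 groups and not over 6 independent conditions. FOXL2 and CTNNB1 spanned less than 1 between group means and RSPO1 was at background, so no genes were matched to them.

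**Figure D3:**
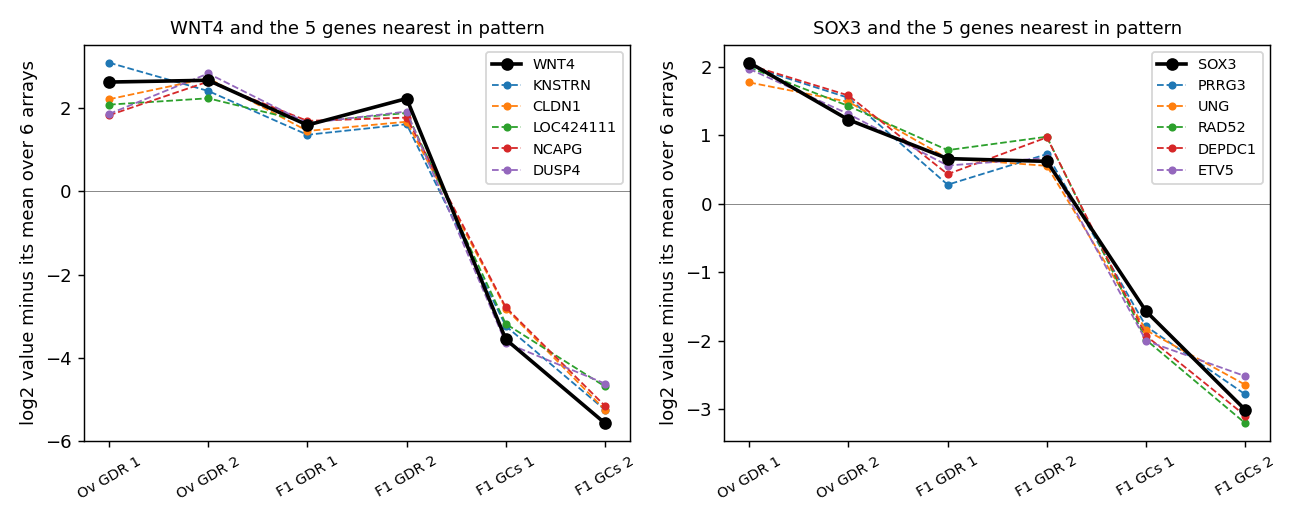
Log2 values minus their mean over the 6 arrays, for WNT4 (left) and SOX3 (right) in black and the 5 genes nearest to each as dashed lines. All of them are high in Ov GDR and F1 GDR, low in F1 GCs and lower on F1 GCs replicate 2 than on replicate 1.

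The rest of the WNT and beta-catenin pathway was read from 6 lists with 109 genes, of which 95 were measured, each by its brightest probe set, and 22 of these were at background in all groups. For Ov GDR against F1 GCs 19 of the 95 (20.0%) had an adjusted p under 0.05, 8 higher and 11 lower, against 15.1% of all probe sets. Of these DKK2 and APC2 were at background in both groups, which leaves 6 higher and 11 lower. The split turned to 15 higher and 8 lower when the 3 reporter genes were given equal means on all arrays. This moves the median of all probe sets by 0.43 for this comparison. That setting also changed the estimate of the spread, with the SE going from 0.72 to 0.53 for WNT4 and from 0.13 to 0.45 for RSPO1. Counts and adjusted p values under it thus cannot be read as an effect of the shift alone. For F1 GDR against F1 GCs it was 3 (3.16%, against 5.19% of all), 1 higher and 2 lower, and for Ov GDR against F1 GDR 1 (1.05%, against 1.86% of all), which was lower. At an unadjusted p under 0.05 the counts were 40 (42.1%), 25 (26.3%) and 17 (17.9%) in this order of comparisons, against 35.1%, 17.9% and 18.7% of all probe sets. For this and the later lists the bases are unlike. List genes are read by their brightest probe set, while the share of all counts every probe set, of which 36.6% to 51.4% were above background on an array. The median difference of the 95 genes was 0.07, 0.01 and 0.06, like that of all probe sets at 0.07, 0.01 and 0.05. For Ov GDR against F1 GCs the count was 2 without either F1 GCs array, 11 without F1 GDR replicate 1, 12 without F1 GDR replicate 2 and 29 without Ov GDR replicate 2. For F1 GDR against F1 GCs it was 8 without either Ov GDR array, 1 without F1 GCs replicate 1 and 0 without any other array, and for Ov GDR against F1 GDR it was 10 without Ov GDR replicate 1, 17 without Ov GDR replicate 2 and 0 without any other array.

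Among the ligands WNT4 had 1 companion. WNT6 read 8.64 and 8.89 in Ov GDR, 8.23 and 8.11 in F1 GDR and 4.15 and 2.88 in F1 GCs, where again replicate 1 was the higher array. It rose by 5.24 for Ov GDR (37.9-fold, limma, Benjamini-Hochberg adjusted p = 0.00681) and by 4.65 for F1 GDR (25.1-fold, adjusted p = 0.0272), both against F1 GCs. Without F1 GCs replicate 1 the Ov GDR difference was 5.88 and the F1 GDR one 5.29 (log2), and without F1 GCs replicate 2 they were 4.61 and 4.02, where the F1 GDR call was lost (adjusted p = 0.0788). It was also lost without F1 GDR replicate 1 (adjusted p = 0.0981) or F1 GDR replicate 2 (adjusted p = 0.118). Of 20 measured genes in this list 8 were at background in all groups and 2 (10.0%) passed for Ov GDR against F1 GCs, where 15.1% of all probe sets did, and WLS, which carries WNT proteins to the cell surface, had a log2 difference of -1.06 for Ov GDR minus F1 GCs, a call that was lost with equal means of the reporter genes (adjusted p = 0.31).

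Of 20 measured receptors 4 (20.0%) passed for Ov GDR against F1 GCs, 2 higher and 2 lower, where 15.1% of all probe sets did. FZD1 read 12.10 and 10.90 in Ov GDR, 10.36 and 10.27 in F1 GDR and 9.04 and 7.77 in F1 GCs, and the co-receptor LRP5 read 9.21 and 9.23 in Ov GDR, 7.44 and 5.72 in F1 GDR and 5.89 and 6.09 in F1 GCs. Set against F1 GCs both were higher in Ov GDR, FZD1 by 3.09 (limma, Benjamini-Hochberg adjusted p = 0.0346) and LRP5 by 3.23 (adjusted p = 0.0356). FZD6 and FZD8 were lower, with differences of -4.47 (adjusted p = 0.0118) and -2.57 (adjusted p = 0.0356). Each of these 4 receptors has several probe sets, of which only 1 passed. The probe sets of LRP5 ran from 0.11 to 3.23 and those of FZD8 from -2.57 to 0.17. The value of FZD1 was 2.49 without Ov GDR replicate 1, 3.70 without Ov GDR replicate 2, 3.73 without F1 GCs replicate 1 and 2.46 without F1 GCs replicate 2. Without Ov GDR replicate 1 the array left was below background for FZD6, which was then at least 28.7-fold lower, and its difference was -3.82 without Ov GDR replicate 2. No receptor passed the test in the other comparisons. At an unadjusted p under 0.05 it was 7 of 20 for F1 GDR against F1 GCs, against 17.9% of all probe sets. For Ov GDR against F1 GDR it was 2 of 20, against 18.7% of all.

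Of 13 measured secreted inhibitors 5 (38.5%) passed for Ov GDR against F1 GCs, 1 higher and 4 lower, where 15.1% of all probe sets did. DKK3, a member of the Dickkopf family, read 7.07 and 6.69 in Ov GDR, 10.13 and 10.11 in F1 GDR and 11.68 and 11.93 in F1 GCs. Compared with F1 GCs it was 30.3-fold lower in Ov GDR (limma, Benjamini-Hochberg adjusted p = 0.00268) and 3.21-fold lower in F1 GDR (adjusted p = 0.0293). Compared with F1 GDR it was 9.45-fold lower in Ov GDR (adjusted p = 0.0115). The 3 groups did not overlap. The granulosa marker sum without ZP3 fell over the same steps as DKK3. FRZB and WIF1 differed little at the first step, with -0.59 and 0.13 for F1 GDR minus F1 GCs. The part of the granulosa share in the values of DKK3, FRZB and WIF1 was not tested.

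FRZB and WIF1, which bind WNT proteins outside the cell, were lower in Ov GDR in the comparison with F1 GCs (limma, Benjamini-Hochberg adjusted p = 0.0133 and 0.0218). FRZB read 3.81 and 5.56 in Ov GDR, 9.05 and 8.88 in F1 GDR and 9.42 and 9.70 in F1 GCs, and its difference of -4.87 became -4.00 without Ov GDR replicate 1 and -5.75 without Ov GDR replicate 2. WIF1 read 5.16 and 6.95 in Ov GDR, 10.23 and 10.04 in F1 GDR and 10.15 and 9.86 in F1 GCs, and its difference of -3.95 became -3.06 and -4.85 without the same arrays. For Ov GDR minus F1 GDR the adjusted p was 0.0591 for FRZB and 0.0643 for WIF1. SFRP4 had a difference of -1.72 for F1 GDR minus F1 GCs (limma, Benjamini-Hochberg adjusted p = 0.0424). Of 3 probe sets of SFRP4 only this one passed, and the highest difference among them was 0.01. DKK2 passed the test at background values and is not read.

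**Figure D4:**
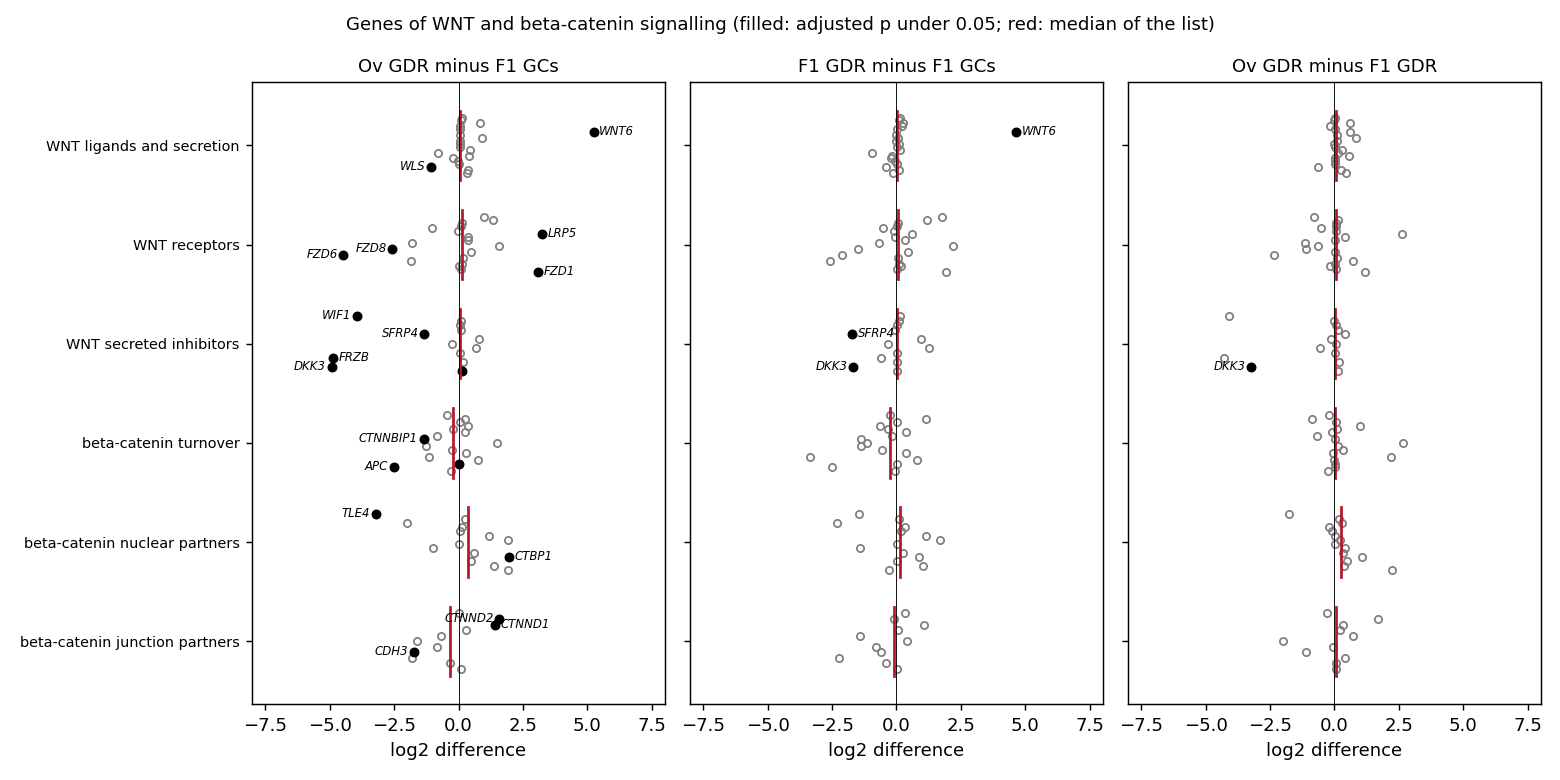
Log2 differences of the measured genes in the 6 WNT and beta-catenin lists for the 3 comparisons. Filled points have an adjusted p under 0.05, open ones do not, and the red line is the median of the list. WNT6 stands at the right at 5.24 and 4.65, the inhibitors DKK3, FRZB and WIF1 at the left, and the medians lie near 0.

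Around beta-catenin itself, the Ov GDR against F1 GCs comparison had 3 of 17 turnover genes (17.6%), 2 of 14 nuclear partners (14.3%) and 3 of 11 junction partners (27.3%) with an adjusted p under 0.05, against 15.1% of all probe sets. Among the turnover genes APC, a scaffold of the complex that degrades beta-catenin, was lower with a difference of -2.51 (limma, Benjamini-Hochberg adjusted p = 0.0309) and so was CTNNBIP1, which keeps beta-catenin from its nuclear partners, with -1.36 (adjusted p = 0.033), while APC2 was at background. Of 4 probe sets of APC only this one passed. The co-repressor CTBP1 was higher by 1.95 (adjusted p = 0.00768) and the co-repressor TLE4 lower, with a difference of -3.22 (adjusted p = 0.0111). At the junctions CTNND2 and CTNND1, catenins that bind cadherins, were higher by 1.58 (adjusted p = 0.0453) and 1.40 (adjusted p = 0.0321). Only 1 of 4 probe sets passed for each, with differences from 0.06 to 1.58 for CTNND2 and from -0.36 to 1.40 for CTNND1. The cadherin CDH3 was lower, with a difference of -1.72 (adjusted p = 0.0217). With equal means of the reporter genes the calls of CTNNBIP1 (adjusted p = 0.345) and CDH3 (adjusted p = 0.0866) were lost. No gene of these 3 lists passed in either other comparison. At an unadjusted p under 0.05 it was 3 of 17, 5 of 14 and 4 of 11 for F1 GDR against F1 GCs, against 17.9% of all probe sets. For Ov GDR against F1 GDR it was 2 of 17, 4 of 14 and 3 of 11, against 18.7% of all.

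Genes that share the ovarian programme with FOXL2 did not move as one. Of 19 measured, 10 (52.6%) had an adjusted p under 0.05 for Ov GDR against F1 GCs, 5 higher and 5 lower, against 15.1% of all probe sets. For F1 GDR against F1 GCs 4 were higher and 1 lower, 26.3% against 5.19% of all, and for Ov GDR against F1 GDR 1 was lower, 5.26% against 1.86% of all. The median difference was 0.13, -0.03 and 0.06 in these comparisons. This list, like the others, was chosen with earlier results of these data known, so its shares are a description. CYP19A1, the aromatase that makes estrogen and that FOXL2 activates in mammals, was at background on all 6 arrays. It is also in the marker list of theca and stroma, which were not among the samples.

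The 5 higher genes were BMP2, FST, NR0B1, HSD17B1 and EMX2, the last named after its values were seen. BMP2, a ligand linked to FOXL2 in ovary, read 8.71 and 8.69 in Ov GDR, 6.62 and 5.29 in F1 GDR and 3.78 and 3.41 in F1 GCs, a difference of 5.10 for Ov GDR minus F1 GCs (limma, Benjamini-Hochberg adjusted p = 0.00777). Of 3 probe sets of BMP2 only this one passed, and the lowest difference among them was 0.07. FST, the activin binding protein follistatin, was higher than in F1 GCs by 3.29 in Ov GDR (adjusted p = 0.0134) and 3.23 in F1 GDR (adjusted p = 0.033). NR0B1, a nuclear receptor that represses steroid genes, was higher by 2.85 in Ov GDR (adjusted p = 0.0142) and 2.61 in F1 GDR (adjusted p = 0.0377). HSD17B1, which makes estradiol from estrone, read 7.43 and 7.13 in Ov GDR, 9.20 and 8.47 in F1 GDR and 4.18 and 2.29 in F1 GCs. Its difference of 4.05 for Ov GDR minus F1 GCs (adjusted p = 0.0295) was 3.10 without F1 GCs replicate 2, where the call was lost (adjusted p = 0.0886). For F1 GDR minus F1 GCs it was 5.60 (adjusted p = 0.0321), or 4.66 without the same array (adjusted p = 0.092). Without F1 GCs replicate 1 the array left was below background, and Ov GDR was at least 22.7-fold and F1 GDR at least 66.7-fold above it. Here too F1 GCs replicate 1 was the higher array, as for WNT4 and SOX3.

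Of the 5 lower genes NR5A2, STAR and NR5A1 are also in the granulosa list, and the others, RUNX1 and HSD17B4, were named after their values were seen. NR5A2, a nuclear receptor of granulosa cells, read 3.06 and 2.90 in Ov GDR, 7.21 and 5.64 in F1 GDR and 11.04 and 11.34 in F1 GCs. Ov GDR was at background, so against F1 GCs it was at least 265-fold lower there (limma, Benjamini-Hochberg adjusted p = 0.00414), and F1 GDR was 27.2-fold lower (adjusted p = 0.031), or 46.9-fold without F1 GDR replicate 1 and 15.8-fold without F1 GDR replicate 2. STAR, which brings cholesterol into mitochondria, was lower in Ov GDR by 97.2-fold. NR5A1, a master regulator of steroid genes, was lower in Ov GDR, by 26.3-fold against F1 GCs (adjusted p = 0.00305) and by 13.1-fold against F1 GDR (adjusted p = 0.0142). NR5A2, STAR and NR5A1 are themselves counted in the granulosa marker sum, with and without ZP3, so its fall is not a separate measure beside theirs. The part of the granulosa share in the 3 groups was not tested.

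**Figure D5:**
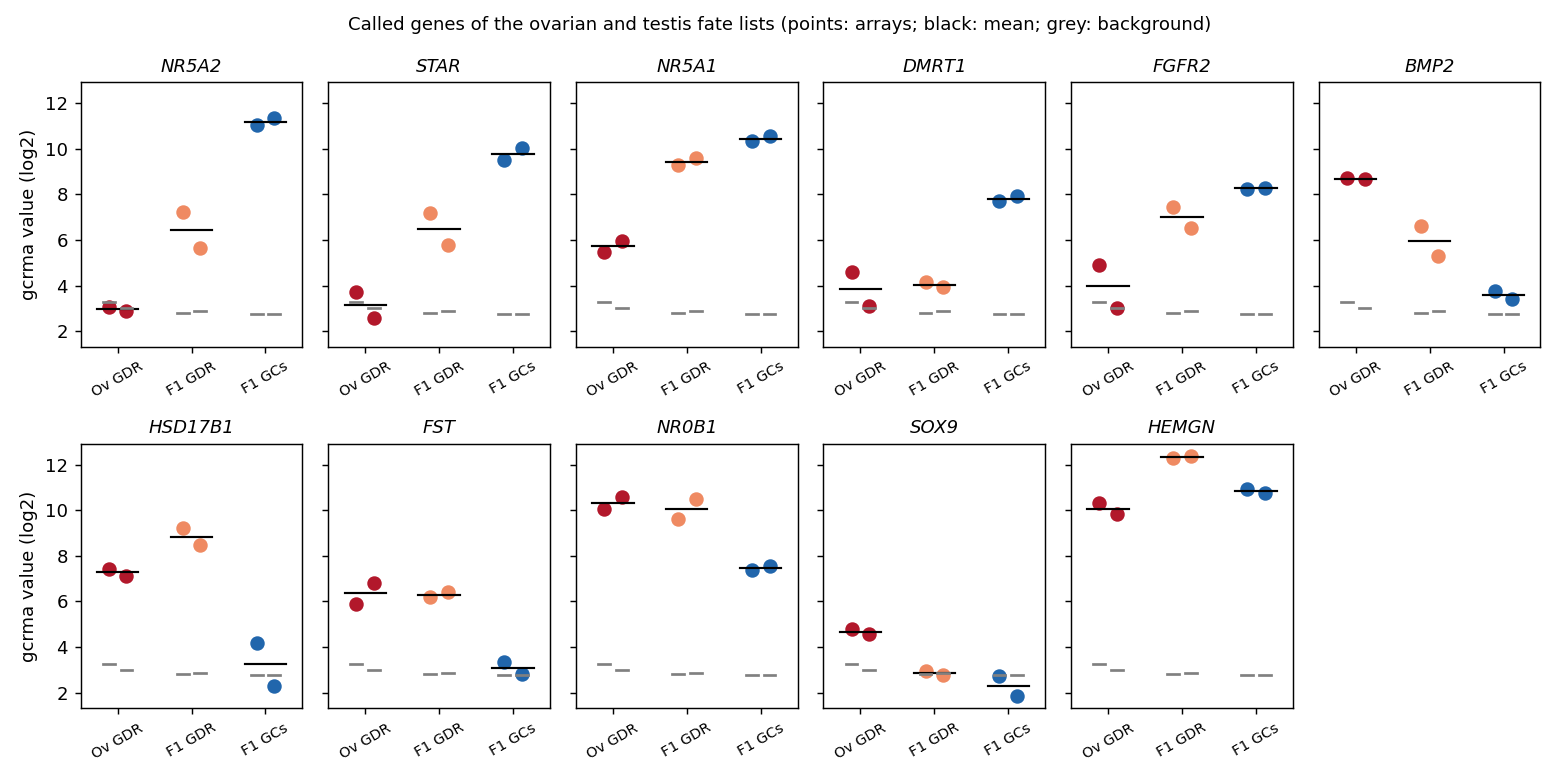
Values on the gcrma log2 scale of 11 genes of the ovarian and testis fate lists with an adjusted p under 0.05 in some comparison, drawn as in the plot of the 5 genes by array. NR5A2, STAR and NR5A1 are lowest in Ov GDR and highest in F1 GCs, BMP2 runs the other way, and HSD17B1 and HEMGN are highest in F1 GDR.

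Of 13 measured genes of the testis pathway, 1 was higher and 2 lower in Ov GDR against F1 GCs, 23.1% against 15.1% of all probe sets. SOX9, the testis gene that misplaced SOX3 can switch on in mice, read 4.78 and 4.57 in Ov GDR, 2.95 and 2.79 in F1 GDR and 2.75 and 1.85 in F1 GCs, so Ov GDR was at least 3.74-fold above F1 GCs, which were at background (limma, Benjamini-Hochberg adjusted p = 0.015). DMRT1, the sex-determining gene of birds, was lower, with differences from F1 GCs of -3.95 in Ov GDR (adjusted p = 0.015) and -3.76 in F1 GDR (adjusted p = 0.037). Only 1 of its 7 probe sets passed in each comparison, and 2 of the 7 were lower in Ov GDR, and without Ov GDR replicate 1 or 2 the Ov GDR difference was -4.68 or -3.23. FGFR2 was lower in Ov GDR, with a difference from F1 GCs of -4.29, or -5.23 without Ov GDR replicate 1 and -3.35 without Ov GDR replicate 2. HEMGN, a candidate testis gene in chickens that is also known from blood cells, was highest in F1 GDR, by 1.49 over F1 GCs (adjusted p = 0.0305), and Ov GDR minus F1 GDR was -2.27 (adjusted p = 0.0182).

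Among the relatives of SOX3, 3 of 15 measured genes (20.0%, against 15.1% of all probe sets) passed in Ov GDR against F1 GCs, SOX9, SOX17, which was higher by 1.78, and SOX5, which was lower, at -0.71, and lost its call with equal means of the reporter genes (adjusted p = 0.654). For F1 GDR minus F1 GCs the difference of SOX5 was nearly unchanged by that setting, -0.85 before and -0.88 after. Its limma adjusted p there still went from 0.0428 to 0.593, so such a lost call is not a mark of the scaling alone. Among the relatives of FOXL2, 7 of 22 (31.8%) passed in Ov GDR against F1 GCs, 2 higher and 5 lower. FOXO1, a forkhead factor that insulin signals hold out of the nucleus, read 3.01 and 2.92 in Ov GDR, 6.81 and 7.01 in F1 GDR and 8.12 and 7.85 in F1 GCs. Ov GDR was at background and at least 28.6-fold below F1 GCs (limma, Benjamini-Hochberg adjusted p = 0.0029) and at least 13.6-fold below F1 GDR (adjusted p = 0.0138). For FOXP1 Ov GDR was at least 8.14-fold below F1 GCs. Of 4 probe sets of FOXP1 only this one passed, 2 were lower in Ov GDR, and the differences ran from -3.30 to 0.36. FOXC2 was higher in Ov GDR by 2.37. The rank order of FOXL2, highest in Ov GDR, was thus the reverse of that of FOXO1 and of the brightest probe set of FOXP1.

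The named list genes amounted to 34 for Ov GDR against F1 GCs, 10 for F1 GDR against F1 GCs and 5 for Ov GDR against F1 GDR. Without F1 GCs replicate 1 the adjusted p stayed under 0.05 for 9 of the 34 and without F1 GCs replicate 2 for 7. It did for 19 without either F1 GDR array, for 28 without Ov GDR replicate 1 and for 32 without Ov GDR replicate 2, and WNT6, DKK3, NR5A2, NR5A1, FOXO1 and FOXP1 kept it throughout. For F1 GDR against F1 GCs 0 of 10 kept it without either F1 GDR array or without F1 GCs replicate 2, and 2 without F1 GCs replicate 1. For Ov GDR against F1 GDR 0 of 5 kept it without either F1 GDR or either F1 GCs array. A group with 1 array left was given the spread of the others. In the Ov GDR against F1 GCs comparison 22 named genes had several probe sets. Of these, 6 had a further probe set that passed in the same direction, namely CTBP1, TLE4, FST, NR5A2, FGFR2 and SOX17. The others passed in the named direction by 1 probe set only. FOXO3, a forkhead relative of FOXL2, had one that passed in the opposite direction.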

How the data were processed

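RNA of 3 groups was hybridized to 6 Affymetrix chicken arrays. Signals were turned into 1 value per probe set with gcrma by the authors, and these deposited log2 values were taken as they stand. Their versions of R and gcrma are not given in the sources used, and the column of F1 GDR replicate 2 is rounded to 2 decimals. The array has 38535 probe sets. Without its 96 Affymetrix controls 38439 remain, of which 27168 carry 1 symbol in the platform's annotation.

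All comparisons used limma 3.58.1 (R 4.3.3) on all 6 arrays (3 residual and 1.66 prior degrees of freedom, variance trend), with Benjamini-Hochberg adjustment over all probe sets. A gene with several probe sets is read by its brightest. A group is at background where both arrays are at or under the highest of 23 foreign control probe sets. Named list genes are the up to 3 genes per list, comparison and direction with the largest called difference and no overlap. For WNT4 and SOX3 the 5 genes nearest in pattern were named as well. The members and the lists were chosen with earlier results of these data known. A check on simulated data asked only whether median differences came back near the shifts put in. It set no bound on false calls. The alternatives were no trend, only the 4 arrays compared, the label suffix as a block, a filter on signal (13306 probe sets whose highest group mean reaches 4), equal means of ACTB, GAPDH and EEF1A1, Bonferroni adjustment, a minimum difference of 1, the most variable probe set and each array left out. No sequences are printed.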

Additional observations from a re-analysis of the deposited data

How the results depend on the processing

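Of 114 differences of the 5 genes under the alternatives, 7 moved by more than the spread between arrays, all with equal means of the reporter genes. There WNT4 for Ov GDR minus F1 GDR was 1.19. The other 107 are no sign of stability. Leaving out 1 of 2 arrays always moves a group mean by less than their SD, and another model leaves the difference unchanged. Only equal means of the reporter genes could thus move a value by more. WNT4 ranged from 6.22 to 8.24 for Ov GDR minus F1 GCs, from 5.48 to 7.50 for F1 GDR minus F1 GCs and from 0.42 to 1.19 for Ov GDR minus F1 GDR, where 8.24 and 7.50 rest on an F1 GCs array below background. The count of WNT and beta-catenin genes with an adjusted p under 0.05 in limma depended more on the setting. For Ov GDR against F1 GCs, 19 became 12 with only the 4 arrays compared and ranged from 2 to 29 with an array left out. For F1 GDR against F1 GCs, 3 became 6 without a trend, 10 with only the 4 arrays compared, 15 with the filter on a mean log2 of 4, 12 with equal means of the reporter genes and 5 with the most variable probe set, with a range of 0 to 8 with an array left out. For Ov GDR against F1 GDR, 1 became 2 without a trend, 0 with only the 4 arrays compared, 7 with the filter, 9 with equal means of the reporter genes and 2 with the most variable probe set, with a range of 0 to 17. With Bonferroni adjustment it was 0 in each comparison, against 40, 25 and 17 at an unadjusted p under 0.05. Equal means of the reporter genes shifted the differences for F1 GDR minus F1 GCs by only -0.028 but also changed the estimate of the spread. The counts under that setting thus cannot be read as an effect of the shift alone.

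The suffix differences of the groups correlated weakly, at 0.17 for Ov GDR and F1 GCs, -0.15 for F1 GDR and F1 GCs and -0.15 for Ov GDR and F1 GDR. With 1 such difference per group this cannot tell whether arrays with the same suffix share hens. The suffix was not used as a pairing in the main fit. With the replicate block the count was 11 for Ov GDR against F1 GCs, 0 for F1 GDR against F1 GCs and 0 for Ov GDR against F1 GDR, and 24 of the 34, 0 of the 10 and 0 of the 5 named list genes and WNT4 for Ov GDR but not for F1 GDR against F1 GCs had an adjusted p under 0.05. For these changes the cause was not tested. With 2 arrays per group the number of arrays limits the precision.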
